A study of Zea mays with 8 samples.

Results

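Genes that sit next to each other in the maize gene numbering and that were both far higher in leaves given SLB are the subject here. Members were chosen from the measured values. For every identifier, r is the log2 ratio of the mean over 4 SLB libraries plus 1 to the mean over 4 Control libraries plus 1, in FPKM (fragments counted per gene, scaled to transcript length and to the library's mapped fragments). A member has r of at least 3, which is 8-fold on this scale, and the identifier numbered 1 lower or 1 higher has r of at least 3 too. This gave 162 members out of 44135 identifiers. A further 7 identifiers met the same conditions but fall within a set of 26 numbers that the rule leaves out. All differences between SLB and Control libraries in these members follow from that choice and are given as a description. Counts of members called in a fit are printed beside the background, and nothing rests on them.

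The plants were Zea mays, variety Golden Queen, 14 d old, and the sampled tissue was leaf 4, emerged but still expanding. In 4 libraries the leaves had received a spore suspension labelled SLB, and in the other 4 they had received 0.1% Tween 20 in water. Every library was taken 24 h after treatment. SLB is short for southern leaf blight, a disease of maize leaves that the fungus Cochliobolus heterostrophus causes, and the series concerns maize diterpenoid defences. The 8 libraries share genotype, age, tissue and time, and the labels do not say whether each came from separate plants. In whole leaf pieces, fewer cells of a type and less RNA per cell cannot be told apart. The summed FPKM ranged from 706734 to 755209 in SLB libraries and from 1415306 to 2118483 in Control libraries.

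Neighbouring genes are switched on together in plants in more than one arrangement. Tandem duplication leaves copies of a gene side by side, and many defence families of grasses have grown that way. Plants also hold biosynthetic gene clusters, in which genes for successive enzymes of a defence pathway lie close together, whether or not some are copies of each other. The benzoxazinoid genes of maize are a well known case of such a cluster. The identifiers used here could not be told apart in that respect: the reference gene table matched 0 of them, so no name, family, product or sequence is given, and the leaf could not be checked against marker genes. Identifier numbers were taken to follow gene order along the B73 RefGen_v4 assembly, which was not checked. The plants were variety Golden Queen, so their gene order and gene copies may differ from that assembly, which was not checked either. How fragments that match several genes were assigned is not given in the sources used here, so the levels of neighbours that are near-identical copies would be uncertain.

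Of all 44135 identifiers, 1053 had r of at least 3, a share of 2.39%. Of these 1053, 169 had a neighbour that also reached it, a share of 16%. After the named numbers were left out, the 162 members formed 75 runs of consecutive numbers and 1 single identifier, Zm00001d028814. The induced neighbour of Zm00001d028814 is among those left out. There were 66 runs of 2, 7 runs of 3 and 2 runs of 4. The runs were scattered through the numbering: blocks of 5000 numbers, each with 3239 to 4228 identifiers in the table, held between 3 and 11 runs.

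The members spanned a wide range of levels after SLB. Their mean over the SLB libraries ran from 7.41 to 13236 FPKM, with a median of 40.7 FPKM. It was at least 100 FPKM in 42 members. The 3 most abundant were Zm00001d048949, Zm00001d017275 and Zm00001d040245, at 13236 ± 2400, 1150 ± 263 and 1130 ± 219 FPKM in SLB libraries and 21.3 ± 2.51, 99.3 ± 30.4 and 2.36 ± 1.38 FPKM in Control libraries (SD, n = 4 each). The 884 identifiers with r of at least 3 and no such neighbour had a median of 40.4 FPKM in SLB libraries, so the medians of the 2 sets lay close together. Summed, the members made up 4.06% ± 0.553 of all FPKM in SLB libraries, against 0.0282% ± 0.00663 in Control libraries (SD, n = 4 each). The summed FPKM itself was lower in every SLB library than in any Control library, so part of this contrast lies in the totals.

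The value of r had a median of 4.29 in the members and 3.74 in the 884 induced identifiers without an induced neighbour, beside 0 over all identifiers. It ran from 3.02 to 9.22 in members. In 161 of 162 members every SLB library lay above every Control library, where the same held for 28.9% of all identifiers. In limma, run over the 19407 identifiers with at least 1 FPKM in at least 4 libraries, 161 members were tested and 161 were called higher in SLB libraries, beside 56% of all identifiers tested. Since r chose the members, nothing is read from these counts. The expressed identifiers as a whole had a median r of 0.67 as deposited and of -0.01 after median-ratio scaling between libraries. Under that scaling 116 of the 162 members still had r of at least 3 and all 162 stayed above 0. As members were chosen at r of at least 3, nothing is read from that direction either.

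Just inside the threshold stood Zm00001d032686 with r of 3.02, Zm00001d046225 with 3.03 and Zm00001d007754 with 3.05. Zm00001d037213 (r of 2.96), Zm00001d032857 (2.95) and Zm00001d034387 (2.94) lay just outside it beside an induced identifier. Zm00001d046225 averaged 7.41 ± 1.80 FPKM in SLB libraries and 0.028 ± 0.0236 FPKM in Control libraries (SD, n = 4 each), while Zm00001d037213 averaged 9.09 ± 1.6 FPKM in SLB libraries and 0.301 ± 0.244 FPKM in Control libraries. Zm00001d046225 and Zm00001d037213 thus lay on either side of the threshold at like SLB levels. Zm00001d032686, just inside it, was far higher in both groups, at 141 FPKM in SLB libraries and 16.4 FPKM in Control libraries on average.

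Control levels of the members were mostly low. Of 162 members, 41 (25.3%) were listed at 0 in all 4 Control libraries, and 45 more were at 0 in some of them. The share at 0 in all 4 was 13.7% among induced identifiers without an induced neighbour and 39.3% among all 44135 identifiers, of which 13397 were at 0 in all 8 libraries. Another 41 members had at least 1 FPKM in every Control library, which is 25.3% of members, against 42.2% of the induced identifiers without an induced neighbour. An exact 0 in a table without counts can be a failed estimate, so such genes are only described as listed at 0. Only 11 members averaged 10 FPKM or more in Control libraries, Zm00001d017275 being the highest of them.

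**Figure D1:**
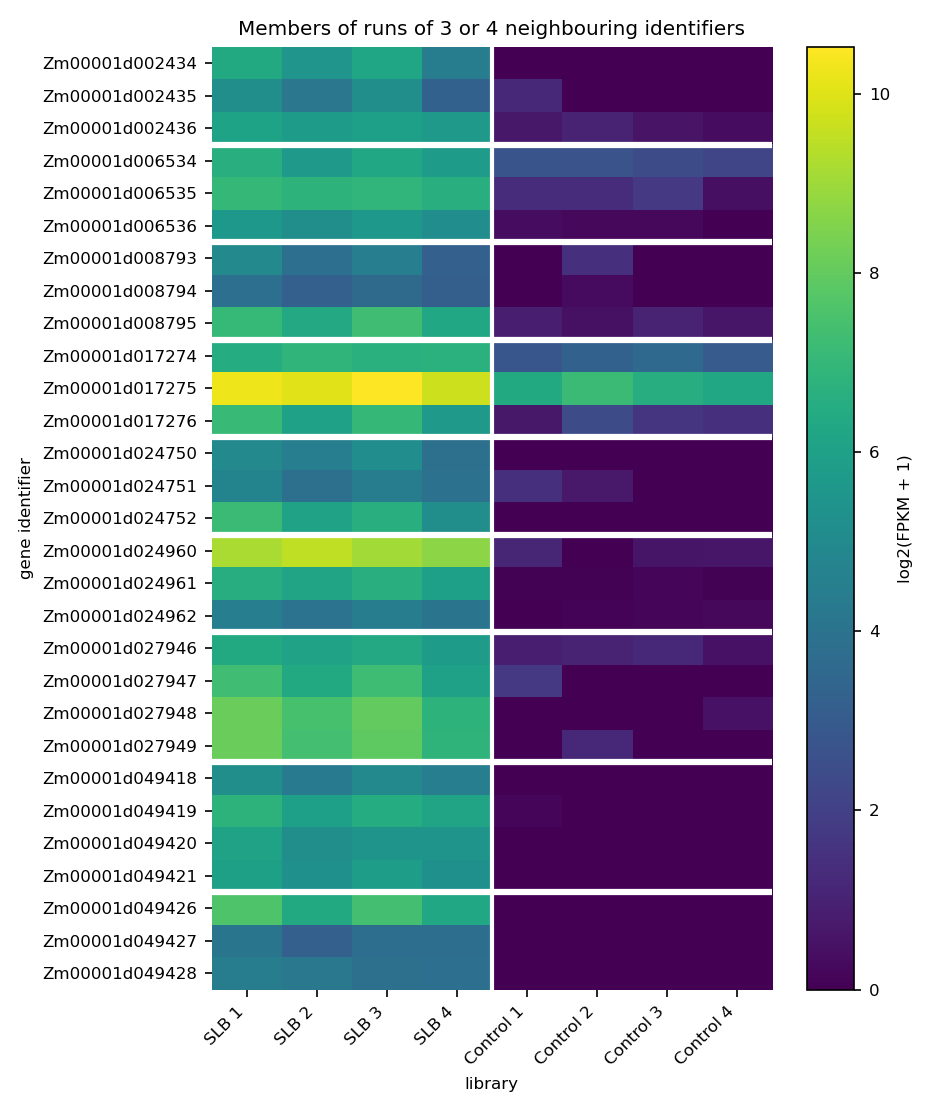
Colour gives log2(FPKM + 1) of the 29 members of runs of 3 or 4 (rows, with white lines between runs) in the 4 SLB and the 4 Control libraries (columns). Zm00001d017275 stands out as bright in both groups, at 846 to 1467 FPKM in SLB libraries and 77.8 to 144 FPKM in Control libraries, while the lowest 2 runs are dark in nearly all Control cells.

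The highest gene of each of the 2 runs of 4 stood 2.86-fold and 3.05-fold above the lowest in SLB libraries. In the first run, Zm00001d027948 had 273, 176, 257 and 112 FPKM in SLB replicates 1 to 4 and 0, 0, 0 and 0.409 FPKM in Control replicates 1 to 4. Its neighbour Zm00001d027949 had 279, 166, 243 and 113 FPKM in SLB replicates 1 to 4, against 0, 1.32, 0 and 0 FPKM in Control replicates 1 to 4. These 2 genes kept almost the same level in each SLB library: the ratio of FPKM + 1 of Zm00001d027948 to Zm00001d027949 was 0.98, 1.06, 1.06 and 0.99. The other 2 genes of this run were lower. Zm00001d027947 averaged 113 ± 47 FPKM in SLB libraries and 0.587 ± 1.17 FPKM in Control libraries, and Zm00001d027946 averaged 71 ± 14 FPKM in SLB libraries and 0.899 ± 0.359 FPKM in Control libraries (SD, n = 4 each). All 4 genes were highest in SLB replicate 1 and lowest in SLB replicate 4. The identifiers on either side, Zm00001d027945 with r of 0.02 and Zm00001d027950 with r of -0.11, stand where the run ends.

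The second run of 4 began with Zm00001d049418, at 35.5, 19.3, 30.2 and 21.8 FPKM in SLB replicates 1 to 4 and listed at 0 in all 4 Control libraries. Its neighbour Zm00001d049419 had 111, 60.9, 91.4 and 70.4 FPKM in SLB replicates 1 to 4, and 0.141 FPKM in Control replicate 1 with 0 in the other Control libraries. The ratio of Zm00001d049419 to Zm00001d049418 was 3.06, 3.05, 2.96 and 3.13 in the 4 SLB libraries, the steadiest of the 86 pairs of adjacent members (SD of 0.0327 on the log2 scale). Zm00001d049420 averaged 46.7 ± 13.2 FPKM and Zm00001d049421 averaged 49.1 ± 13.3 FPKM in SLB libraries (SD, n = 4 each), and both were listed at 0 in every Control library.

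Of the 7 runs of 3, that of Zm00001d024960 to Zm00001d024962 fell off most steeply in level. Zm00001d024960 had 575, 724, 526 and 411 FPKM in SLB replicates 1 to 4, against 1.22, 0, 0.506 and 0.567 FPKM in Control replicates 1 to 4. Next to it, Zm00001d024961 averaged 81.2 ± 18.9 FPKM in SLB libraries and 0.0597 ± 0.0414 FPKM in Control libraries (SD, n = 4 each). The third, Zm00001d024962, averaged 18.1 ± 3.2 FPKM in SLB libraries and 0.077 ± 0.0655 FPKM in Control libraries (SD, n = 4 each). The first stood 29.3-fold above the third in SLB libraries on the FPKM + 1 scale, and no SLB ranges of these 3 genes overlapped.

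The run of Zm00001d017274 to Zm00001d017276 was the most active one in the control leaf. Zm00001d017275 had 1230, 1055, 1467 and 846 FPKM in SLB replicates 1 to 4, against 83.4, 144, 92.1 and 77.8 FPKM in Control replicates 1 to 4. On either side, Zm00001d017274 averaged 103 ± 10.8 FPKM in SLB libraries and 8.2 ± 2.15 FPKM in Control libraries, and Zm00001d017276 averaged 93.7 ± 43.8 FPKM in SLB libraries and 2.17 ± 1.57 FPKM in Control libraries (SD, n = 4 each). Zm00001d017275 and Zm00001d017274 had nearly the same r, 3.52 and 3.5, while their levels differed about as much in Control as in SLB libraries. In contrast, Zm00001d017276 had r of 4.9 from a lower control level. The last of these genes followed the SLB libraries differently, with 135 and 128 FPKM in replicates 1 and 3 and 63.7 and 48.7 FPKM in replicates 2 and 4, where Zm00001d017274 stayed between 90.9 and 117 FPKM.

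The remaining runs of 3 stayed within moderate levels. In SLB libraries Zm00001d002434, Zm00001d002435 and Zm00001d002436 averaged 55, 24.3 and 58 FPKM, with SDs of 28.6, 13.7 and 7.45 FPKM. In Control libraries none of these 3 exceeded 1.28 FPKM. The run of Zm00001d006534, Zm00001d006535 and Zm00001d006536 averaged 68.7 ± 20.6, 114 ± 13.4 and 41.3 ± 7.42 FPKM in SLB libraries and 4.84 ± 0.975, 1.45 ± 0.834 and 0.154 ± 0.112 FPKM in Control libraries (SD, n = 4 each). The order of these 3 genes thus differed between the groups: the middle one was highest in SLB libraries, and the first was highest in Control libraries.

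In the run of Zm00001d008793 to Zm00001d008795 the last gene stood apart, with 132, 80.4, 156 and 75.8 FPKM in SLB replicates 1 to 4 and 0.82, 0.401, 1.06 and 0.576 FPKM in Control replicates 1 to 4. Zm00001d008793 averaged 18.3 ± 9.53 FPKM and Zm00001d008794 averaged 10.3 ± 2.47 FPKM in SLB libraries, and both were listed at 0 in 3 of 4 Control libraries. The run of Zm00001d024750 to Zm00001d024752 averaged 25 ± 9.09, 18.7 ± 5.87 and 85.7 ± 45.4 FPKM in SLB libraries (SD, n = 4 each). Its first and last genes were listed at 0 in every Control library, and Zm00001d024751 had 1.66, 0.64, 0 and 0 FPKM in Control replicates 1 to 4.

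The last run of 3 belongs to a stretch that holds 3 runs close together. Between Zm00001d049418 and Zm00001d049436, 17 identifiers are in the table, and 9 of them are members, in a run of 4, a run of 3 and a run of 2. Zm00001d049426 had 194, 81.8, 167 and 78.3 FPKM in SLB replicates 1 to 4 and was listed at 0 in all Control libraries. The next genes of its run, Zm00001d049427 and Zm00001d049428, averaged 12.6 ± 3.12 and 16.4 ± 3.33 FPKM in SLB libraries (SD, n = 4 each) and were listed at 0 in all Control libraries. The closing run held Zm00001d049435 with 11.1 ± 2.98 FPKM and Zm00001d049436 with 82.2 ± 15.6 FPKM in SLB libraries, both listed at 0 in all Control libraries.

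Identifiers between these runs were also listed at 0 in Control libraries and were lower in SLB libraries than most members. Zm00001d049423 averaged 9.87 ± 3.47 FPKM in SLB libraries and was listed at 0 in all Control libraries. It reached r of at least 3 but is no member, since Zm00001d049422 is absent from the table and Zm00001d049424 had r of 2.06. Zm00001d049424 and Zm00001d049425 averaged 3.16 ± 1.69 and 1.78 ± 0.234 FPKM in SLB libraries and were listed at 0 in all Control libraries (SD, n = 4 each). The pattern ran on to Zm00001d049439. From Zm00001d049418 up to that number 20 identifiers are in the table, of which 19 were listed at 0 in all 4 Control libraries and 18 were above 0 in all 4 SLB libraries. Of the 19 above 0 in some SLB library, 14 were highest in SLB replicate 1, and their summed level was 655, 365, 535 and 371 FPKM in SLB replicates 1 to 4. Zm00001d049440, the next identifier, averaged 4.28 FPKM in SLB libraries and 2.29 FPKM in Control libraries.

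Such long blocks were rare in the table. Counting consecutive identifiers listed at 0 in all 4 Control libraries and above 0 in some SLB library, the longest block was the 10 identifiers from Zm00001d049420 to Zm00001d049431. The next was the 7 from Zm00001d049433 to Zm00001d049439. These 2 blocks are separated by Zm00001d049432 alone, which was listed at 0 in all 8 libraries. No other block exceeded 4 identifiers. This stretch was singled out after its values were seen, and whether every fragment counted there came from the plant and not from the inoculum was not tested.

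**Figure D2:**
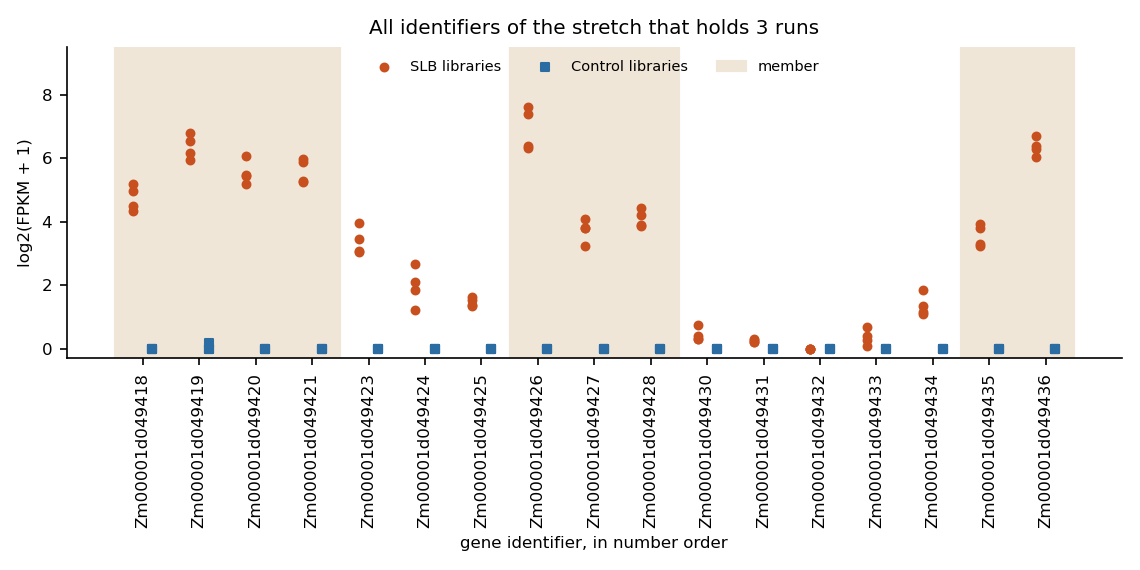
Each point is 1 library's log2(FPKM + 1) for the identifiers from Zm00001d049418 to Zm00001d049436 in number order, circles for SLB and squares for Control libraries, with members shaded. All Control points lie at 0 except 1 value of 0.141 FPKM for Zm00001d049419, while SLB points are above 0 for every identifier but Zm00001d049432.

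Another 3 stretches held 2 runs with at most 10 numbers from one run's end to the next run's start. Zm00001d017270 and Zm00001d017271 lie next to the run of Zm00001d017274 to Zm00001d017276, so 5 of 7 consecutive identifiers were members. Of the 2 between, Zm00001d017272 was listed at 0 in all 8 libraries and Zm00001d017273 did not exceed 0.502 FPKM in any. From Zm00001d006526 to Zm00001d006536, 5 of 9 identifiers in the table were members, and from Zm00001d021683 to Zm00001d021693, 4 of 11 were. Zm00001d021688, between those 2 runs, averaged 23.9 ± 4.88 FPKM in SLB libraries and 0.053 ± 0.0645 FPKM in Control libraries (SD, n = 4 each), and the identifiers on its sides, Zm00001d021687 and Zm00001d021689, had r of 0.25 and -0.41.

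Levels within a run differed widely. Over the 86 pairs of adjacent members, the higher gene exceeded the lower by a median of 2.69-fold in SLB libraries, as a ratio of mean FPKM + 1. It was under 2-fold in 34 pairs, 2- to 4-fold in 19 and at least 4-fold in 33, of which 15 reached 10-fold. FPKM are scaled to transcript length, but for near-identical neighbours the split of shared fragments is unknown, and the ratio is uncertain to that extent. The higher gene led in all 4 SLB libraries in 72 pairs, and in 55 pairs the SLB ranges of the 2 genes did not overlap. A two-sided exact permutation test of 1 pair over 4 libraries, by switching signs, cannot give a p below 0.125, and no test of single pairs was run.

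**Figure D3:**
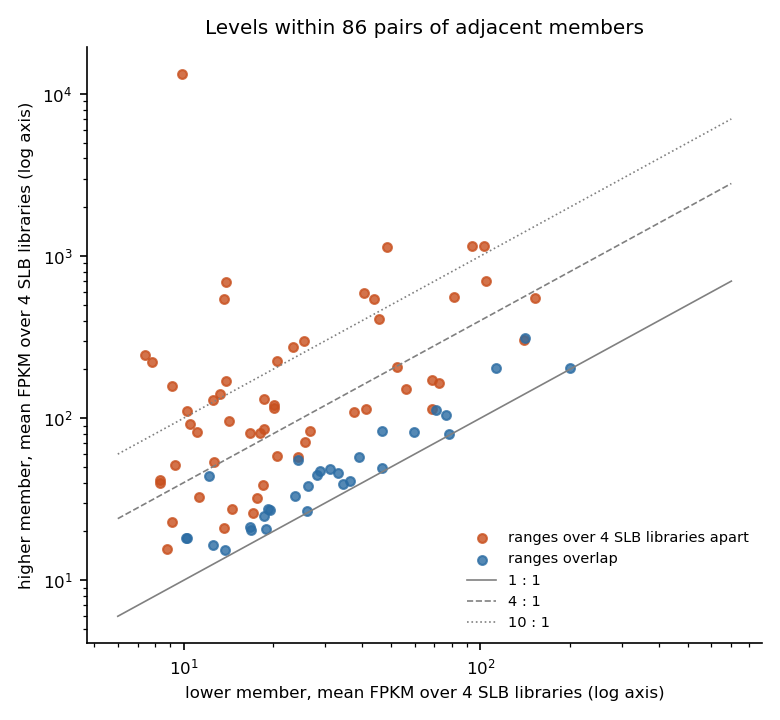
Each point is a pair of adjacent members, with the mean FPKM over 4 SLB libraries of the lower gene on the x axis and of the higher gene on the y axis, both on log axes. Grey lines mark ratios of 1, 4 and 10. The point at the top is the pair of Zm00001d048949 at 13236 FPKM and Zm00001d048950 at 9.88 FPKM.

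The widest gap was between Zm00001d048949 and Zm00001d048950. Zm00001d048949 had 15413, 14955, 12288 and 10288 FPKM in SLB replicates 1 to 4, against 22, 24.5, 19.5 and 19.1 FPKM in Control replicates 1 to 4, and was the most abundant of all identifiers in 3 of the 4 SLB libraries. Zm00001d048950 had 9.3, 11.7, 10.7 and 7.85 FPKM in SLB replicates 1 to 4 and was listed at 0 in all Control libraries. On the FPKM + 1 scale the first exceeded the second 1217-fold in SLB libraries. Without Zm00001d048949 the members' share of summed FPKM was 2.25% ± 0.328 in SLB libraries and 0.027% ± 0.00644 in Control libraries (SD, n = 4 each).

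In the next 4 pairs by width, an abundant gene stood beside one of 7.41 to 13.9 FPKM in SLB libraries. Over all 15 pairs of at least 10-fold the lower gene had up to 103 FPKM, in the pair of Zm00001d017275 and Zm00001d017274. Zm00001d007753 averaged 690 ± 261 FPKM in SLB libraries and 14.7 ± 7.34 FPKM in Control libraries, and its neighbour Zm00001d007754 averaged 13.9 ± 2.14 FPKM in SLB libraries and 0.79 ± 0.139 FPKM in Control libraries (SD, n = 4 each). Their ratio was 46.5-fold in SLB libraries. Zm00001d017271 exceeded Zm00001d017270 37.1-fold, and it was highest in SLB replicate 4, at 680 FPKM, where Zm00001d017270 was lowest, at 7.2 FPKM. The ratio was 29.1-fold between Zm00001d046226 and Zm00001d046225, and 25.3-fold between Zm00001d048087 and Zm00001d048086.

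Neighbours also differed in how far they stood above their Control level. Zm00001d042633 had 472, 443, 405 and 326 FPKM in SLB replicates 1 to 4 and was listed at 0 in all Control libraries, while Zm00001d042634 had 46.9, 44.3, 56.5 and 34.4 FPKM in SLB replicates 1 to 4 and 5.18, 5.41, 4.22 and 1.18 FPKM in Control replicates 1 to 4. The more abundant gene after SLB was thus the one listed at 0 in Control libraries. Zm00001d040245 had 1228, 1293, 1190 and 808 FPKM in SLB replicates 1 to 4, against 1.12, 4.33, 2.13 and 1.85 FPKM in Control replicates 1 to 4. Its neighbour Zm00001d040244 averaged 48.4 ± 6.37 FPKM in SLB libraries and 0.528 ± 0.385 FPKM in Control libraries (SD, n = 4 each). Zm00001d044442 and Zm00001d044443 kept a steady gap, with ratios of 15.6, 16.5, 14.7 and 16.5 over SLB replicates 1 to 4, at 158 ± 46.3 and 9.17 ± 3.54 FPKM in SLB libraries and 0.347 ± 0.187 and 0.0475 ± 0.0381 FPKM in Control libraries (SD, n = 4 each). These 3 pairs were named after their values were seen, as was Zm00001d028814, which had 309, 277, 282 and 330 FPKM in SLB replicates 1 to 4 and 1.27, 3.32, 1.74 and 1.29 FPKM in Control replicates 1 to 4.

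A few neighbours had nearly equal levels. Zm00001d019725 had 98.2, 71.5, 113 and 34.4 FPKM in SLB replicates 1 to 4, and 2.73, 8.27, 6.38 and 3.04 FPKM in Control replicates 1 to 4. Zm00001d019726 had 115, 54.1, 104 and 40.2 FPKM in SLB replicates 1 to 4, and 0, 0, 0 and 3.23 FPKM in Control replicates 1 to 4. Their mean SLB levels differed 1.01-fold, while r was 3.72 and 5.45 because the control levels differed. Zm00001d037305 and Zm00001d037304, at 26.8 ± 7.47 and 26.1 ± 6.54 FPKM in SLB libraries and 0.603 ± 0.215 and 1.52 ± 1.09 FPKM in Control libraries (SD, n = 4 each), showed the same closeness after SLB.

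The 5 runs of 2 whose lower gene was most abundant were that of Zm00001d019725, just given, and 4 others. Zm00001d045042 had 555, 494, 560 and 588 FPKM in SLB replicates 1 to 4 and 21.6, 22, 22.5 and 25.3 FPKM in Control replicates 1 to 4. Its values thus lay close together within each group. Its neighbour Zm00001d045043 averaged 153 ± 34.8 FPKM in SLB libraries and 6.89 ± 2.42 FPKM in Control libraries (SD, n = 4 each). In the second of these, Zm00001d024665 had 416, 233, 424 and 167 FPKM in SLB replicates 1 to 4, and Zm00001d024664 had 187, 108, 201 and 66.1 FPKM. Both were listed at 0 in all Control libraries, and the ratio between them stayed at 2.1 to 2.5 over the SLB libraries.

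In the other 2 the more abundant gene had the smaller r. Zm00001d043601 averaged 304 ± 41.9 FPKM in SLB libraries and 23.2 ± 5.32 FPKM in Control libraries, with r of 3.65, while its less abundant neighbour Zm00001d043600, at 140 ± 15 FPKM in SLB libraries and 1.88 ± 0.679 FPKM in Control libraries, had r of 5.62 (SD, n = 4 each). Zm00001d009938, at 698 ± 96.8 FPKM in SLB libraries and 31 ± 6.65 FPKM in Control libraries, had r of 4.45. Zm00001d009939, at 104 ± 14.6 FPKM in SLB libraries and 0.351 ± 0.251 FPKM in Control libraries (SD, n = 4 each), had r of 6.28. Over all 86 pairs, r differed by a median of 1.02 between neighbours, by less than 1 in 41 pairs and by at least 3 in 7. Since 1 is added to both means, r of a gene listed at 0 in all Control libraries depends on its SLB level alone. Between such genes the difference in r only repeats the difference in level, as for Zm00001d049426 and Zm00001d049427, where it was 3.27. In 12 pairs both genes were listed at 0 in every Control library. In 57 pairs the gene that was higher in SLB libraries was also higher in Control libraries, and in 17 it was not.

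The rule used the mean over the 4 SLB libraries and not their order. A single high library can still raise that mean, so the order is not fully independent of the choice. Of 162 members, 65 were highest in SLB replicate 1, 57 in replicate 3, 32 in replicate 2 and 8 in replicate 4, and 111 (68.5%) were lowest in replicate 4. Among the 10210 identifiers with at least 7 FPKM in SLB libraries on average and r under 3, 22% were lowest in replicate 4. The 884 induced identifiers without an induced neighbour were lowest in replicate 4 in 66.3% of cases, so this order is shared by strongly induced genes at large. In 97 members (59.9%) both SLB replicates 1 and 3 lay above both replicates 2 and 4, where 20.4% of those 10210 identifiers did so. The 884 induced identifiers without an induced neighbour were not counted in this way. Of these 884, 35.5% were highest in replicate 1 and 37.7% in replicate 3, close to the 40.1% and 35.2% of members. All genes come from the same 4 libraries, so these shares are a description.

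Neighbours were compared in how they followed the SLB libraries. Of the 86 adjacent pairs, 42 (48.8%) had their highest value in the same SLB library. Of the 12942 pairs of members from different runs, 32.1% did so, and of the 2911 other adjacent pairs with both genes at 7 FPKM or more in SLB libraries, 32.4% did. The lowest library was shared by 46 adjacent pairs (53.5%), close to the 50.7% of pairs from different runs, and by 27.7% of other adjacent pairs. The full order of the 4 SLB libraries was the same in 16 adjacent pairs (18.6%), in 12.3% of pairs from different runs and in 6.73% of other adjacent pairs. The SD of the log2 ratio over the 4 SLB libraries had a median of 0.341 in adjacent members (quartiles 0.21 and 0.451), 0.418 in pairs from different runs (quartiles 0.275 and 0.624) and 0.266 in other adjacent pairs (quartiles 0.17 and 0.41).

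Some pairs shared an uneven pattern over the SLB libraries. Zm00001d027978 had 38.7, 3.7, 36.9 and 3.05 FPKM in SLB replicates 1 to 4, and Zm00001d027979 had 40.4, 3.61, 27.1 and 4.76 FPKM, with both at 0 in all Control libraries. Both genes were thus far lower in SLB replicates 2 and 4 than in replicates 1 and 3, and the highest SLB value exceeded the lowest 12.7-fold and 11.2-fold. Zm00001d040028 had 14.9, 121, 16.6 and 24.4 FPKM in SLB replicates 1 to 4, against 2.06, 0.641, 5.61 and 1.17 FPKM in Control replicates 1 to 4. Its neighbour Zm00001d040029 had 14.9, 69.3, 11.4 and 16.7 FPKM in SLB replicates 1 to 4, against 1.31, 1.01, 1.71 and 1.28 FPKM in Control replicates 1 to 4. Both peaked in SLB replicate 2, where most members did not. Without that library 159 of the 162 members kept r of at least 3, and the lowest r, that of Zm00001d040028, was 2.54. These 2 pairs were singled out after their spread over the SLB libraries was seen.

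Other neighbours parted within the SLB libraries. Zm00001d052243 had 153, 92, 146 and 72.3 FPKM in SLB replicates 1 to 4, whereas Zm00001d052244 had 65.3, 0, 0 and 15.4 FPKM. In Control libraries Zm00001d052244 was listed at 0 throughout and Zm00001d052243 did not exceed 0.021 FPKM. With 2 of 4 SLB values listed at 0, Zm00001d052244 is the one member whose SLB libraries did not all lie above the Control libraries. Without SLB replicate 1 its r was 2.62, the lowest of the members. Zm00001d017381 had 560, 259, 684 and 668 FPKM in SLB replicates 1 to 4 and Zm00001d017380 had 42.5, 66.7, 43.8 and 22.6 FPKM, so the first was lowest where the second was highest. In Control replicates 1 to 4, Zm00001d017381 had 3.9, 0, 0.443 and 0.958 FPKM and Zm00001d017380 had 0.186, 0, 0.64 and 0.117 FPKM. These pairs, too, were picked after their values were seen.

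**Figure D4:**
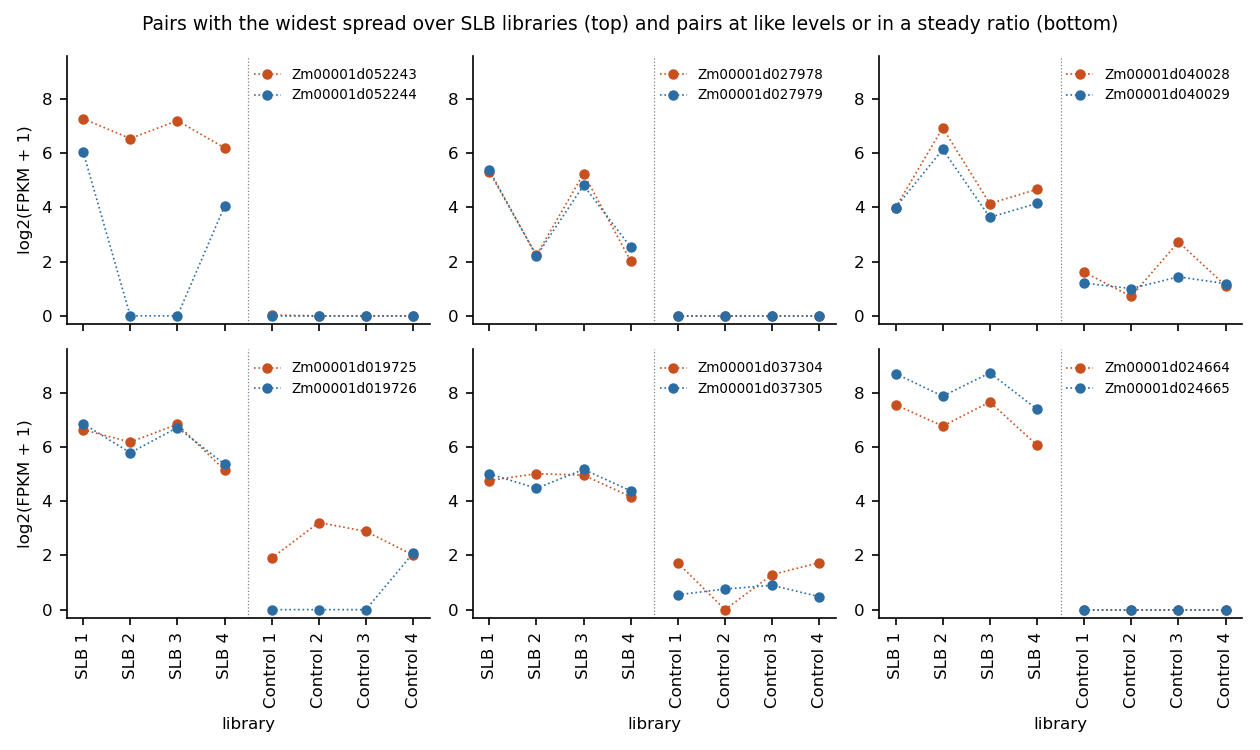
Points give log2(FPKM + 1) in each of the 4 SLB and 4 Control libraries for both genes of 6 pairs, joined by dotted lines only to guide the eye. Zm00001d027978 and Zm00001d027979 drop together in SLB replicates 2 and 4, Zm00001d040028 and Zm00001d040029 peak together in replicate 2, and Zm00001d052244 is at 0 in replicates 2 and 3 while Zm00001d052243 is not.

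Members listed at 0 in all Control libraries varied more between SLB libraries. The coefficient of variation over the 4 SLB libraries had a median of 33.7% in these 41 members and 20.8% in the other 121. Their level in SLB libraries was lower, with a median of 25.9 FPKM against 45.5 FPKM, and a lower level can by itself carry more counting error, whose part was not tested. SLB replicate 1 was the highest library for 24 of the 41 (58.5%) and for 41 of the 121 (33.9%). The 41 include most members of the stretch from Zm00001d049418 to Zm00001d049436, nearly all of them highest in replicate 1. These shares were not counted without that stretch, so part of the contrast may rest on it.

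Identifiers near the runs were induced more often at some distances than at others. By the rule the identifiers directly at a run's end have r under 3. Of 152 ends, 25 met a number absent from the table, 1 met an identifier that the rule leaves out, and 35 met an identifier listed at 0 in all 8 libraries. In 15 the flanking identifier had r of 2 to 3 and in 19 it had r of 1 to 2. At distances of 2, 3, 4, 5 and 6 numbers, 5.88%, 8.26%, 2.7%, 7.69% and 4.35% of identifiers had r of at least 3, beside 2% of all identifiers outside the runs. At distances of 7 to 10 this share was between 0.87% and 3.39%. Each distance holds 109 to 126 identifiers, so a share rests on at most 9 of them, and the shares do not fall steadily with distance.

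**Figure D5:**
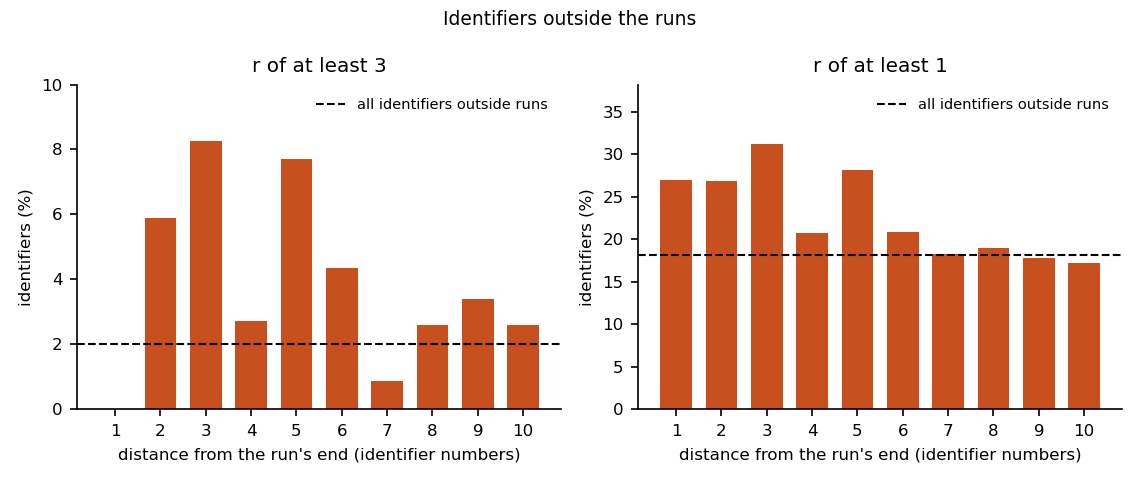
Bars give the percentage of identifiers with r of at least 3 (left) and of at least 1 (right) at 1 to 10 numbers from the nearest run's end, and the dashed line gives all identifiers outside the runs (2% and 18.2%). The bar at distance 1 on the left is 0 by the rule, and on the right the bars stand at 26.9% to 31.2% at distances 1 to 3 and at 17.2% at distance 10.

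Some runs bordered on genes that went the other way. In 8 of the 126 flanking identifiers present r was -1 or less. Zm00001d052242, beside Zm00001d052243, had 123, 85.8, 117 and 163 FPKM in SLB replicates 1 to 4, against 11913, 9165, 4996 and 8107 FPKM in Control replicates 1 to 4. Zm00001d021645 averaged 10.2 ± 2.12 FPKM in SLB libraries and 150 ± 48.9 FPKM in Control libraries, next to Zm00001d021646 at 20.6 ± 1.62 FPKM in SLB libraries and 0.841 ± 0.228 FPKM in Control libraries (SD, n = 4 each). Next in that run, Zm00001d021647 had 254, 195, 248 and 209 FPKM in SLB replicates 1 to 4 and did not exceed 0.024 FPKM in any Control library. Over all identifiers outside the runs, 9.47% had r of -1 or less, beside 6.35% at distance 1.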

How the data were processed

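Stranded mRNA libraries of 8 maize leaf samples were sequenced, 4 SLB and 4 Control. The authors deposited 1 table of FPKM values with 8 columns. The submitters' processing notes name Trimmomatic 0.32, a read trimmer, and the genome build B73 RefGen_v4. Which aligner and quantifier made the values, and whether they were scaled further, is not given in the sources used here. Depth is unknown, so FPKM carry no interval for counting error. Columns were matched to libraries by the deposited column list, and 0 columns of values were left unused. No pair of libraries had more than 0.0366% equal values among identifiers at 1 FPKM or more.

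The rule was applied to the deposited values with a pseudocount of 1. Differences between libraries were fitted with limma 3.58.1 in R 4.3.3 on log2(FPKM + 1), with a trend, two-sided, Benjamini-Hochberg adjustment and a threshold of 0.05. The script was tested on simulated data. Python 3.11.15 with pandas 2.3.3 was used for the rest. P-values measure the spread between libraries, which may be technical. Members, lists and alternatives were chosen with earlier results of these data known. Named were all members of runs of 3 or more and, among runs of 2, the 5 with the highest lower gene, the 5 widest and the 3 narrowest in SLB level, 1 pair falling under 2 of these. The 3 members nearest the threshold and the 3 identifiers nearest outside it were also named. Gene lists by family could not be counted, as a reference gene table for Zm-B73-REFERENCE-NAM-5.0, with 49888 genes, matched 0 identifiers.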

Additional observations from a re-analysis of the deposited data

Results flagged for a closer look

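Over the 162 members, 20 other identifiers named in the text and the summed FPKM of each library, 262 groups of 4 libraries without a value of 0 were checked for 1 library whose gap to the nearest of the others was above Dixon's 95% critical value as a share of the group's range. Another 104 groups held a 0 and were not checked. Such a gap was found in 13 groups (4.96%), and chance alone flags about 1 in 20.

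The neighbours Zm00001d040028 and Zm00001d040029 both stood out through SLB replicate 2, at 121 and 69.3 FPKM. In SLB replicate 4, Zm00001d006035 had 121 FPKM and Zm00001d012851 had 12 FPKM, both below the other 3 SLB libraries, and Zm00001d049957 had 15.7 FPKM, above them. Zm00001d016402 was high in SLB replicate 2, at 45.7 FPKM, and the non-member Zm00001d049440 was low in SLB replicate 1, at 3.53 FPKM. Among Control libraries, replicate 3 was high for Zm00001d007485 at 0.527 FPKM, for Zm00001d037214 at 0.191 FPKM, for Zm00001d039052 at 4.16 FPKM and for Zm00001d047439 at 1.89 FPKM. Zm00001d051157 was high in Control replicate 2, at 1.12 FPKM, and Zm00001d036401 was low in Control replicate 4, at 9.07 FPKM.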

How the results depend on the processing

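How many genes the rule finds depends on the scale between libraries, on the pseudocount and on the threshold itself. The direction in the 162 members did not change. Since they were chosen at r of at least 3 on the same values, this says nothing about stability. Nor does their distance from the expressed identifiers, given below. The median r of the 19407 expressed identifiers was 0.67 as deposited, -0.01 with median-ratio scaling, 0.18 with quantile normalization and 1.63 with equal totals (added after the data were seen). The members' median r of 4.29 became 3.76, 3.97 and 5.02 under these 3 scalings, 6.15 with a pseudocount of 0.1 and 4.91 with 0.5, and lay 3.62 above that of expressed identifiers as deposited and 3.77, 3.79 and 3.39 above it under the scalings. The lowest r of any member was 2.22, 2.5 and 3.61 under them. Applied anew, with a member left alone by the numbers taken out counted as a run, the rule gave 84 members in 38 runs with median-ratio scaling, all of them among the 162. It gave 500 members in 233 runs, 30 of them of 3 or more, with equal totals, and 462 members in 212 runs, 30 of 3 or more, with a pseudocount of 0.1. A pseudocount of 0.5 gave 15 runs of 3 or more. A threshold of 4 gave 55 members in 25 runs, 4 of 3 or more, and a threshold of 2 gave 540 members in 252 runs, 32 of 3 or more. The other counts stayed within 1.5 times the reported ones, apart from the pairs that share the full order of SLB libraries (16) in place of the highest library (42).

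Leaving out 1 library gave 156 to 175 members, 73 to 82 runs, 9 to 10 runs of 3 or more and a median r of 4.15 to 4.4. Without 1 SLB library, 32 to 34 pairs were at least 4-fold apart, 33 to 35 were under 2-fold apart and 42 to 56 shared their highest library. Since r chose the members on the same values, their count in limma says nothing about stability. It was 161 of 161 tested without any 1 library, beside 54.3% to 57.1% of all identifiers tested. With the replicate number as a replicate block it was again 161 of 161, beside 55.8% of all identifiers tested. The deviations of same-numbered libraries from their group means had correlations of 0.0485, 0.0152, 0.126 and 0.112, so the numbers were not treated as pairs. Family lists were not run, since no identifier had a name.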
